A study of Mus musculus with 14 samples.

Results

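C/EBP-only regions are stretches of the mouse genome at which both Cebpa and Cebpb gave a ChIP-seq peak and none of 11 other transcription factors did. They were found by joining all peaks of 13 factors that touched or overlapped, on 19 autosomes and chromosome X, and were chosen by those same peaks, so the presence of Cebpa and Cebpb and the absence of the others describe them and are not results. The rule kept 10580 of 121980 joined regions (8.67%, 95% interval 8.52 to 8.83). Intervals here are exact binomial ones, which cover counting error alone. All libraries came from untreated Hoxb8-FL cells, a mouse line labelled as resembling lymphoid-primed multipotent progenitors, in which a conditional Hoxb8 protein and the Flt3 pathway keep progenitors dividing, grown with estradiol and FLT3 in the medium. The 2 C/EBP factors, the ETS factors Spi1, Erg and Fli1, the repressors Gfi1b and Gfi1, the helix-loop-helix factors Tal1 and Lyl1 with their partner Lmo2, and Runx1, Meis1 and Gata2 had 1 library each, fixed for 10 min in formaldehyde at 0.4% or 1%, and the 1 rabbit IgG library had no peak list used here. With 1 library a factor there is no replicate check and no test between kinds of region, and cells that share 1 line do not stand for progenitors at large. The label of the line was not checked against marker genes, since expression was not measured.

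Cebpa and Cebpb belong to the CCAAT/enhancer-binding proteins, basic leucine zipper factors that bind DNA as dimers with each other or with relatives such as Atf4. Each arm of the dimer contacts a short half-site, and the classical palindrome reads the same on both strands. Cebpa drives the step to granulocyte and monocyte progenitors, and Cebpb acts in macrophages and in emergency granulocyte production. In myeloid cells both often bind beside the ETS factor Spi1 (PU.1), and both also serve fat and liver cells.

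The lists hold positions only, so read depth behind a peak is unknown. They hold from 3217 (Gata2) to 76378 (Spi1) peaks, each 400 bp wide. The Cebpa list gave 35064 peaks on these chromosomes and the Cebpb list 37793, and C/EBP-only regions took 30.2% of the first (29.7 to 30.7) and 28.0% of the other (27.5 to 28.5). Both factors met in 28915 regions. Of these, 36.6% were C/EBP-only (36.0 to 37.1), 11.4% held Spi1 as the single further factor (11.1 to 11.8), and 15026 held at least 1 factor other than Spi1. For comparison, 3294 regions held Cebpa alone and 4628 held Cebpb alone.

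No genome sequence was used here, but RefSeq promoter windows of the same build (GRCm38.p6, which is mm10) were. Each window spans 250 bases before and 50 bases from a gene's start on. The 10 stretches printed next are the places where the letters of a C/EBP site lay nearest to the point on which the peaks of both factors were centred, and show such a site at the middle of a region. They are not typical, since TTGCNNAA lay within the 100 bp around the mean midpoint in 61 of 191 C/EBP-only promoter regions (31.9%, 25.4 to 39.1). Each is 5′ to 3′ on the strand of its gene, with up to 26 bases either side of the site, and capitals mark the site, TTGCNNAA read on either strand. One line each follows.
D330050G23Rik: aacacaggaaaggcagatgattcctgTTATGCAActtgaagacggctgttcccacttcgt
Slc8a2: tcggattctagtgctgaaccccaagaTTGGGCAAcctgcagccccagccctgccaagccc
4833411C07Rik: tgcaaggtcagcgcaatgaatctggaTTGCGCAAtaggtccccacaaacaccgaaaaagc
Dhcr7: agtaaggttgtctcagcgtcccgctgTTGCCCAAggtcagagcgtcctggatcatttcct
Fcgrt: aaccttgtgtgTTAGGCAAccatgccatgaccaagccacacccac
Ormdl2: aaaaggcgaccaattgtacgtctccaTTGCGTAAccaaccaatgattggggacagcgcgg
Prmt3: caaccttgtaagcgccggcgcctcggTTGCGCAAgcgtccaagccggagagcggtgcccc
2610008E11Rik: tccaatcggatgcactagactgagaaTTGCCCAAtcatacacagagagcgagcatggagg
C3: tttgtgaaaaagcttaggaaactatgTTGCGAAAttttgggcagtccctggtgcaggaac
Cers2: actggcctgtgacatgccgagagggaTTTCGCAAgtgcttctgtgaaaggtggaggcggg

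In mm10 these stretches lie at chr2:116900004-116900063 (plus strand), chr7:16129597-16129656 (plus strand), chr8:10899771-10899830 (plus strand), chr7:143823084-143823143 (plus strand), chr7:45104028-45104072 (minus strand), chr10:128821659-128821718 (minus strand), chr7:49778273-49778332 (plus strand), chr10:79097624-79097683 (minus strand), chr17:57228148-57228207 (minus strand) and chr3:95318709-95318768 (plus strand), in the order of the lines. All are promoter sequence, before the first base of the gene, and the centres of the sites lay 41 bp (C3) to 235 bp (Fcgrt) before it. The centre of the site was at most 1 bp from the mean of the Cebpa and Cebpb midpoints in all 10, which is what they were picked for. The 2 palindromes among them, at Prmt3 and 4833411C07Rik, had midpoints of the 2 factors 3 bp and 1 bp apart. The Prmt3 peaks stood at 2.31% of the way down the Cebpa list and 0.445% down the Cebpb list, and those of 4833411C07Rik at 3.25% and 1.64%. At Fcgrt the midpoints lay 23 bp apart, and the peaks stood at 85.8% and 78.0% of the lists.

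C3 encodes the central complement protein and Fcgrt the neonatal Fc receptor. Dhcr7 carries out the last step of cholesterol synthesis, and its window is shared with Nadsyn1, an enzyme of NAD synthesis. Ormdl2, which shares its window with Sarnp, restrains sphingolipid synthesis, and Cers2 makes ceramides with very long chains. Prmt3 is a protein arginine methyltransferase and Slc8a2 a sodium and calcium exchanger. The nearest peak of another factor was 0.023 kb away at Dhcr7 (Meis1), 0.529 kb at Prmt3 (Spi1), 1.40 kb at C3 (Spi1), 13.8 kb at Ormdl2 (Spi1) and 383 kb at 2610008E11Rik (Spi1).

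The sites were concentrated at the point where the 2 factors were centred. Over all bases of promoter windows that fell inside a C/EBP-only region, the general site TTGCNNAA occurred 66 times in 10235 positions within 20 bp of the mean midpoint, which is 6.45 per 1000 positions. More than 100 bp from it the site occurred 16 times in 38084 positions, or 0.420 per 1000. In regions of both factors with Spi1 only, the densities were 4.19 within 20 bp and 0.458 beyond 100 bp. In regions of both with a factor other than Spi1 they were 3.92 and 0.307. Cebpa alone had 1.09 within 20 bp, from 4 sites, and 0.176 beyond 100 bp, from 2 sites. Cebpb alone had 2.33 within 20 bp, from 8 sites, and 0.235 beyond 100 bp, from 3 sites. The hexamer GAGGAA, part of the usual PU.1 binding site, had no such concentration in C/EBP-only regions, with 0.486 per 1000 within 20 bp (5 sites) and 0.957 beyond 100 bp (37 sites). In regions of both with Spi1 only it had 1.99 and 1.81.

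**Figure D1:**
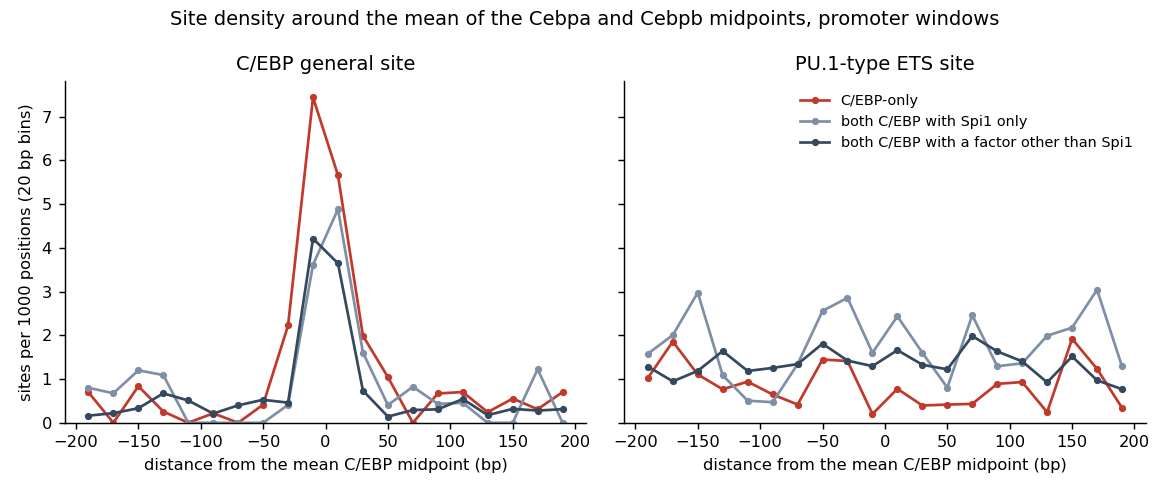
Sites per 1000 positions in bins of 20 bp (vertical axis) against the distance in bp from the mean of the Cebpa and Cebpb midpoints (horizontal axis), over promoter windows, for C/EBP-only regions and 2 kinds of region with further factors. The C/EBP general site reaches 7.44 per 1000 just below the midpoint in C/EBP-only regions, and the PU.1-type site stays under 2 per 1000 there at every distance.

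A C/EBP-only region covered 152 promoter windows in full (140 regions), and sequence away from promoters was not searched. The general site was in 60 of them (39.5%, 31.6 to 47.7). It was in 17.0% of windows under Cebpa alone (8 of 47, 7.65 to 30.8), 16.3% under Cebpb alone (7 of 43, 6.81 to 30.7), 24.4% under both with Spi1 only (30 of 123, 17.1 to 33.0) and 18.5% under both with a factor other than Spi1 (252 of 1364, 16.4 to 20.6). Windows under regions with no C/EBP factor had it in 4.77%, and all 32583 windows in 10.9%. The interval of the C/EBP-only windows overlapped that of both with Spi1 only and did not reach that of both with other factors. Region width differed: the median was 413 bp for C/EBP-only, 465 bp with Spi1 only and 513 bp with other factors. A wide region can cover a window and have its mean midpoint outside it. Within the 100 bp around the mean midpoint, the site was in 31.9% of C/EBP-only promoter regions (25.4 to 39.1). Spi1 only gave 23.0% (15.2 to 32.5), other factors 18.3% (15.8 to 21.0), Cebpa alone 10.8% (4.78 to 20.2) and Cebpb alone 14.3% (6.75 to 25.4). Base composition also varied between these groups: the median G+C content was 54.3% in C/EBP-only windows, 55.7% with Spi1 only, 58.7% with other factors, 62.0% with no C/EBP factor and 53.0% in all windows, and its part in the shares was not tested.

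The palindrome TTGCGCAA was in 9 of the 152 C/EBP-only windows (5.92%, 2.74 to 10.9), 3 of 123 with Spi1 only (2.44%), 22 of 1364 with other factors (1.61%) and 60 of all 32583 (0.184%). It was in 0 of the 2118 windows with no C/EBP factor, which allows a share of up to 0.142%, and in 0 of 47 with Cebpa alone and 0 of 43 with Cebpb alone, which allow 6.38% and 6.98%. Among the 66 general sites in the C/EBP-only windows, TTGCACAA was the commonest form (10 sites), followed by TTGCGCAA and TTGCAAAA (9 each), TTGCCCAA (8), and TTGCATAA and TTGCTCAA (7 each). TTGCAGAA made up 0 of the 66 sites in C/EBP-only windows, which allows a share of up to 4.55%, and was the commonest form in all windows with 430 of 3809 sites. The palindrome made up 13.6% of the sites in C/EBP-only windows against 1.58% in all windows. It was not alone in this: TTGCGAAA made up 5 of the 66 sites against 57 of 3809, and TTGCGTAA 4 against 55. Of the other forms that hold CG, TTGCGGAA had 2 against 93 and TTGCCGAA 0 against 73. The median number of CG pairs was 12 in C/EBP-only windows and 7 in all windows. Its part in these shares was not tested.

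Mixed sites join a C/EBP half-site to one of the Atf or Creb proteins, and their shares were close in C/EBP-only windows and in windows of both with Spi1 only. TGATGCAA, the composite read by Atf4 with a C/EBP partner, was in 6 C/EBP-only windows (3.95%, 1.46 to 8.39), 5 windows of both with Spi1 only (4.07%, 1.33 to 9.23), 24 windows of both with other factors (1.76%, 1.13 to 2.61), and 0.881% of all windows. TGACGCAA, which joins a half-site of the cyclic AMP response element to a C/EBP half-site, was in 9 C/EBP-only windows (5.92%, 2.74 to 10.9), 7 with Spi1 only (5.69%, 2.32 to 11.4), 3.74% with other factors (2.80 to 4.89) and 0.488% of all. For both sites the intervals of these 3 kinds of region overlapped. Together, TTGCNNAA, TGATGCAA or TGACGCAA was in 71 of the 152 C/EBP-only windows (46.7%, 38.6 to 55.0), and the rest held none of these letters. With Spi1 only the share was 31.7% (23.6 to 40.7) and with other factors 23.4%.

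The PU.1-type site was less frequent in C/EBP-only windows, whose regions lack Spi1 by the rule, than in windows of both with Spi1 only. This was not particular to C/EBP-only windows: GAGGAA was in 17.0% under Cebpa alone (8 of 47, 7.65 to 30.8). Under Cebpb alone it was in 11.6% (5 of 43, 3.89 to 25.1). GAGGAA was in 19.1% of the C/EBP-only windows (29 of 152, 13.2 to 26.2) against 48.8% with Spi1 only (39.7 to 58.0), 33.5% with other factors and 28.1% of all windows. CCGGAA, the ETS core common at promoters, was in 14.5% (9.30 to 21.1) against 7.32% with Spi1 only, 37.7% with other factors (35.1 to 40.3) and 15.0% of all. For the Runx site TGTGGT the shares were 19.7% of C/EBP-only windows (13.7 to 27.0), 10.6% with Spi1 only (5.75 to 17.4), 18.5% with other factors and 16.6% of all, with overlapping intervals. AGATAA, the GATA site, was in 6.58% of C/EBP-only windows, 4.88% with Spi1 only, 6.60% with other factors and 11.2% of all. The E-box CAGCTG was in 15.8% of C/EBP-only windows, 16.3% with Spi1 only, 15.1% with other factors and 16.4% of all. The AP-1 site TGANTCA was in 8.55% of C/EBP-only windows (4.63 to 14.2), 2.44% with Spi1 only (0.506 to 6.96), 5.79% with other factors and 7.85% of all. Cebpa alone had it in 12.8% (6 of 47) and Cebpb alone in 6.98% (3 of 43), and the intervals of these kinds overlapped that of C/EBP-only windows. These motifs can overlap each other, and each was searched on both strands.

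**Figure D2:**
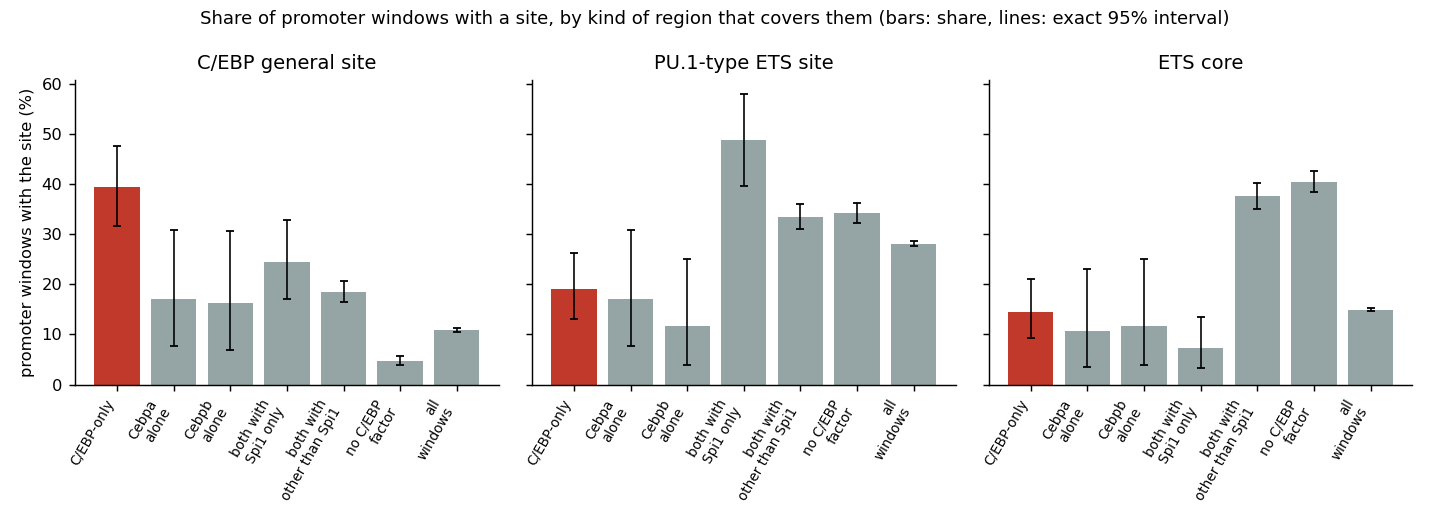
Share of promoter windows (%) that hold each of 3 sites, for windows covered in full by a C/EBP-only region, by 5 other kinds of region, and for all windows, with exact 95% intervals as lines. The C/EBP general site stands at 39.5% under C/EBP-only regions, and the PU.1-type site stands at 48.8% under both C/EBP factors with Spi1 only.

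In every C/EBP-only region there was exactly 1 Cebpa and 1 Cebpb peak, and their midpoints nearly coincided. The median distance was 13 bp (quartiles 6 and 26 bp, 90th percentile 44 bp), although the rule would have let them lie 400 bp apart. Midpoints were equal in 393 regions (3.71%), at most 10 bp apart in 42.5% and at most 50 bp apart in 92.8%, and the widest pair lay 396 bp apart. Midpoints lay over 100 bp apart in 1.11% of C/EBP-only regions, against 1.48% with Spi1 only and 4.09% with other factors, where the medians were 13 bp and 14 bp. These shares over 100 bp are not a like comparison, since a further factor's peak can join Cebpa and Cebpb peaks that do not touch. The widest distances were 520 bp with Spi1 only and 895 bp with other factors. The part of this rule in the shares was not tested. Neither factor led: Cebpb lay at the higher coordinate in 50.2% of regions with unequal midpoints (49.2 to 51.1).

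The rule draws its line at touching, and few regions lay close to it. Another factor's peak was 1 to 50 bp away from 210 C/EBP-only regions (1.98%), which had a median midpoint distance of 12.5 bp. Just outside, 221 regions held both factors and other peaks that overlapped the C/EBP stretch by 50 bp or less, with a median of 11 bp. The median gap to the nearest peak of another factor was 3.11 kb (quartiles 0.938 and 8.47 kb). No such peak lay within 10 kb of 2253 C/EBP-only regions (21.3%, 20.5 to 22.1), against 24.9% of Cebpa alone (23.4 to 26.4) and 24.4% of Cebpb alone (23.1 to 25.6). Spi1 was the nearest other factor for 56.0% of C/EBP-only regions, and its list makes up 36.9% of the peaks of other factors. Lmo2 was nearest for 8.97% (12.9% of the peaks), Meis1 for 7.57% (6.63%), Fli1 for 7.03% (10.6%), Erg for 1.60% (4.35%) and Gata2 for 2.18% (1.55%). Peaks of several factors can lie in the same region and only 1 counts as nearest, so a share of peaks does not give the share to expect.

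Peaks of C/EBP-only regions were spread over the whole of both lists. The order of lines is not explained in the sources used here, but in early lines more peaks lay in regions with further factors, and the 2 midpoints lay closer together. C/EBP-only regions took 24.7% of the first 25% of Cebpa lines, 33.1% of the second, 35.4% of the third and 27.6% of the last. In the Cebpb list they took 26.4%, 34.0%, 30.9% and 20.6%. Over the same 4 stretches of the Cebpa list, Cebpa alone took 0.0456%, 1.47%, 9.69% and 26.4%, and both with factors other than Spi1 took 64.6%, 52.3%, 34.8% and 19.8%. The median midpoint distance in C/EBP-only regions was 8, 13, 16 and 20 bp along the Cebpa list and 8, 13, 17 and 20.5 bp along the Cebpb list. Place in one list went with place in the other, with a Spearman correlation of 0.759 over 10580 regions, a description over sites of 2 libraries of the same cells. The general C/EBP site lay within the 100 bp around the mean midpoint in 23 of 46 promoter regions from the first 25% of Cebpa lines (34.9 to 65.1%), and in 23.3%, 30.5% and 23.3% in the later stretches (43, 59 and 43 regions), with overlapping intervals.

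**Figure D3:**
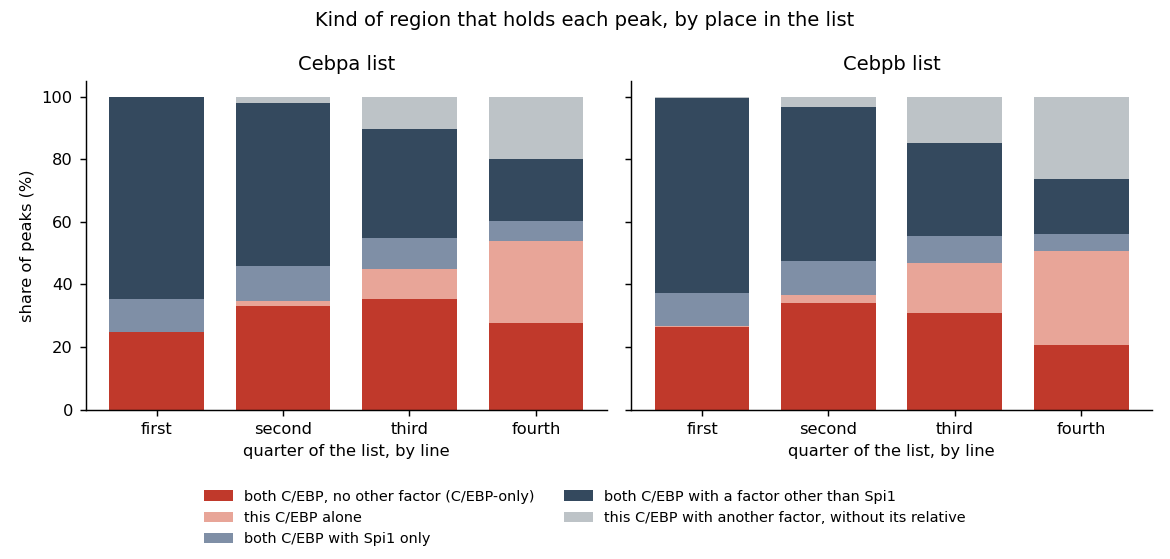
Share of peaks (%, vertical axis) in each kind of region for 4 consecutive stretches of lines (horizontal axis) of the Cebpa list and the Cebpb list. C/EBP-only regions take between 20.6% and 35.4% of every stretch, while the single C/EBP factor alone takes 26.4% and 30.1% of the last stretches.

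C/EBP-only regions lay near a gene start less often than regions of both factors with a factor other than Spi1. Within 1 kb of a RefSeq start lay 8.13% of them (833 of 10245, 7.61 to 8.68), against 8.79% of Cebpa alone, 8.09% of Cebpb alone, 9.66% of both with Spi1 only (8.66 to 10.7) and 15.0% of both with other factors (14.4 to 15.6). The interval of C/EBP-only regions met that of both with Spi1 only and lay below that of both with other factors. The median distance to a start was 20.3 kb, against 17.8 kb with Spi1 only and 15.3 kb with other factors. By boundaries of protein-coding genes, 8.62% lay within 1 kb (8.09 to 9.17), against 9.58% with Spi1 only and 14.5% with other factors. The share inside a gene body was 53.7% (52.7 to 54.6), against 54.5% and 52.4%. Positions inside a gene were not divided into exons and introns.

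The share of C/EBP-only regions among regions with both factors was highest on chromosome X, at 48.0% (271 of 564, 43.9 to 52.3). On the autosomes it ran from 32.9% on chromosome 11 (30.8 to 35.0) to 40.4% on chromosome 3 (37.9 to 42.9). The lists themselves differed in how much of them lay on X: 1.95% of Cebpa and 1.92% of Cebpb peaks, but 0.895% of Runx1, 0.943% of Erg, 1.25% of Lmo2, 2.12% of Spi1 and 3.36% of Gata2 peaks. Of C/EBP-only regions 2.56% lay on X, against 2.84% of both with Spi1 only and 1.32% of both with other factors. The part of these differences in the value on X was not tested.

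**Figure D4:**
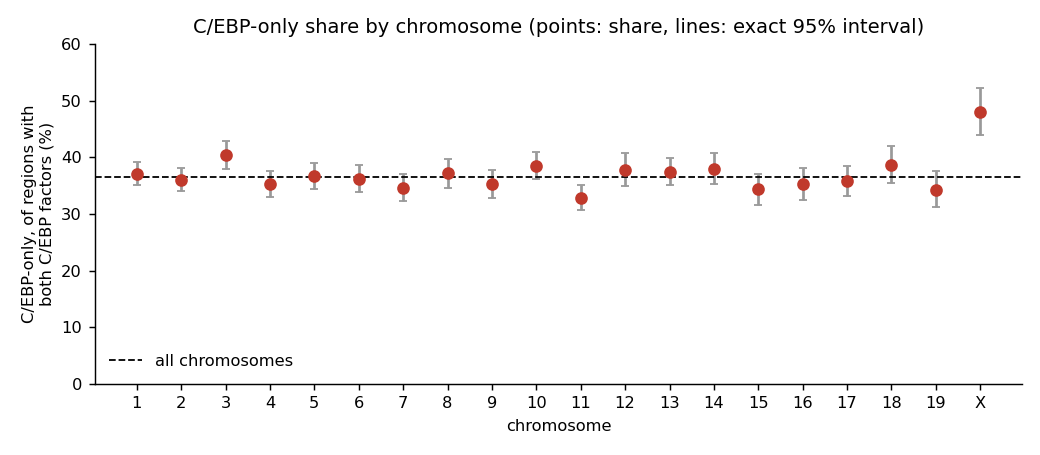
C/EBP-only regions as a share (%) of all regions with both C/EBP factors, by chromosome, with exact 95% intervals as lines and the value over all chromosomes (36.6%) as a dashed line. Chromosome X stands at 48.0%, above the 19 autosomes.

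At genes, a locus was the body of a protein-coding gene with 50 kb either side. Below and above a gene mean at lower and higher coordinates, whatever the strand of the gene. Of 21523 such genes, 10853 (50.4%) had a C/EBP-only region in the locus, and the median gene had 1. This share is the background for the counts that follow. Per 100 kb of locus there were 0.619 C/EBP-only regions over all these genes, 1.73 over stress genes, 1.26 over housekeeping genes, 0.363 over liver genes and 0.275 over neuron genes. Regions with both factors, of any kind, numbered 1.81, 4.92, 3.90, 0.847 and 0.865 per 100 kb, in the same order. Loci differ in length and neighbouring genes share regions, so counts are descriptions of lists chosen with earlier results known. Many genes of a list tie, and of those with equal counts the ones with the shorter locus are named.

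The C/EBP family's own genes all had one, 6 of 6 (background 50.4%). Cebpb had 3 C/EBP-only regions of 7 with both factors. One lay inside the gene interval at chr2:167689942-167690342, one 1.05 kb below it at chr2:167687657-167688081 and one 19.6 kb above it at chr2:167709858-167710271. Cebpa had 1 of 7, at chr7:35132941-35133362, 11.2 kb above the gene and 13.9 kb from its start, while 5 held a factor other than Spi1. Cebpg, the small family member that works as a dimer partner, had 2 of 3, and Cebpe, needed for late granulocytes, had 1 of 2. Cebpd, an acute-phase member, had 1 of 2. Ddit3 (CHOP), the stress-induced member, had 1 of 7, at chr10:127291441-127291843 and 0.850 kb after a start of the gene.

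Genes of stress and the unfolded protein response had a C/EBP-only region in 16 of 20 loci (80%), with a median of 2 regions a gene against 1 over all genes. C/EBP-only regions made up 35.1% of the 114 regions with both factors in these loci, close to the 34.2% over all loci. The regions at the starts of Chac1 and Nupr1 carried the composite site of Atf4 and C/EBP. They are printed here with that of Lcn2, chosen after their values were seen as the list genes whose promoter windows hold the mean midpoint and one of the C/EBP-type sites. Capitals mark TTGCNNAA, TGATGCAA or TGACGCAA on either strand.
Chac1: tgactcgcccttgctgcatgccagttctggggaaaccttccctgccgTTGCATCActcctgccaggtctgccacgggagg
Nupr1: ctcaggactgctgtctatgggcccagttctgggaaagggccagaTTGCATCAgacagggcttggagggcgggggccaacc
Lcn2: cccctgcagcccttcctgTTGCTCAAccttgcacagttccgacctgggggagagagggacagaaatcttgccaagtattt

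The stretches lie in mm10 at chr2:119351002-119351081 (plus strand), chr7:126625545-126625624 (minus strand) and chr2:32387894-32387973 (minus strand), all before the first base of the gene. At Chac1, a glutathione-degrading enzyme induced by Atf4, the composite site TTGCATCA was 11 bp from the mean midpoint, and the peaks stood at 2.77% and 2.56% of the Cebpa and Cebpb lists. At Nupr1, a stress-induced chromatin protein, the same 8 letters lay 8 bp from it, and the locus held 4 C/EBP-only regions of 8 with both factors. At Lcn2, a neutrophil granule protein that binds bacterial iron carriers, the site TTGCTCAA lay 17.5 bp from the mean midpoint, itself 195.5 bp before the start. The start regions of Ccnd3 (cyclin D3) and Cidec (a lipid droplet protein) also held the mean midpoint in their windows, without any of these letters. Trib3 and Gadd45b had 4 C/EBP-only regions each in the locus, of 6 and 13 with both factors, and Xbp1, a factor of the unfolded protein response, had 4 of 6. Dnajb9, Herpud1, Ppp1r15a and Trib2 had none.

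Within 1 kb of a start, 15 of 223 list genes with a promoter window had a C/EBP-only region, against 3.97% of all 17274 protein-coding genes with one. They were Atf3, Atf4, Bach2, Ccnd3, Cdkn1b, Chac1, Cidec, Dbp, Ddit3, Hoxa9, Lcn2, Nfil3, Nupr1, Pgk1 and Rpl13a. Of these, Atf3, Atf4, Dbp, Nfil3 and Bach2 encode basic leucine zipper factors outside the C/EBP family. A list of 19 such genes was among the 16 lists and held all of these except Bach2, which came from the B cell list. Whether such genes are over-represented here was not tested. At Atf3, Atf4 and Nfil3 the midpoints of both factors were equal, and the regions lay 55 bp after, 920 bp after and 275 bp before the start. Among the basic leucine zipper genes of the Atf and AP-1 list, 13 of 19 had a C/EBP-only region in the locus, with a median of 2, led by Fos with 5 of 10 and Batf with 4 of 5. Junb had 3 of 6, and Atf3, Dbp, Fosb and Fosl1 also had 3 each.

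In the 3 myeloid lists C/EBP-only regions made up 24.6%, 28.7% and 23.8% of the regions with both factors (granule, monocyte and receptor genes), against 34.2% over all loci. Erythroid genes (23.4%) and B cell genes (27.7%) had shares in or near the same range. The median gene had 1 in each of the 3 myeloid lists. Neutrophil granule genes had a C/EBP-only region in 11 of 20 loci (55%), with 17 C/EBP-only regions of 69 with both factors there. Mmp8, the neutrophil collagenase, had 4 of 10, with 3 of them from 1.39 to 2.86 kb above the gene. Those 3 lay from 11.4 to 12.9 kb from its start. Ctsg (cathepsin G) had 2 of 6 and Lcn2 2 of 3. Mpo, the myeloperoxidase gene, had 1 of 11, and the elastase gene Elane and its neighbour Prtn3 had 0 of 5. Monocyte and macrophage genes had one in 14 of 20 loci, and the most in a locus was 3, at the chemokine receptor gene Ccr2 (of 12), the Fc receptor gene Fcgr3 (of 6), the receptor gene Csf1r (of 8), Sirpa and Mrc1. Myeloid cytokine receptor genes had one in 12 of 20, led by the TNF receptor gene Tnfrsf1b with 4 of 13. The granulocyte growth factor receptor gene Csf3r had 3 of 4, and Csf1r, Il4ra and Il1r1 also had 3 each. Flt3, which these cells depend on, had 0 of 8.

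Inflammatory and acute-phase genes had a C/EBP-only region in 15 of 20 loci (75%), and 24.6% of their 130 regions with both factors were C/EBP-only, with a median of 1.5 a gene. The chemokine genes Ccl3, Ccl4 and Ccl2 had 4 each, of 12, 13 and 12. Ccl3 and Ccl4 are neighbours and share the same 4 regions. Il6 had 2 of 4 and Il1b 1 of 8. Cell cycle genes had one in 15 of 20, with the highest value of any list gene at Cdk6, a G1 kinase, with 11 of 16. Cdkn2d had 4 of 7 and Cdkn1b (p27) 4 of 6, of which one lay 51 bp after a start, while the inhibitor gene Cdkn1a had 0 of 9.

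Fat cell and lipid genes had a C/EBP-only region in 14 of 20 loci, with a median of 2. Pparg, the master regulator of fat cells, had 8 of 11, with 5 of them inside the gene, Scd1, a fatty acid desaturase, had 3 of 4 and the lipase gene Lipe 3 of 4. Liver genes had the lowest share, 5 of 20 (25%), led by Hnf4a with 4 of 5 and Apoa1 with 2 of 2. Their loci held few regions with both factors, 21 in all, of which 9 (42.9%) were C/EBP-only, against 34.2% over all loci. Ahsg had 1 of 2, as G6pc and Trf also had 1 each, and Alb, the albumin gene, had no region with both factors. Stem and multipotent progenitor genes had one in 14 of 20, and C/EBP-only regions made up 22.0% of their 127 regions with both. Cd34 had 4 of 10, Etv6 4 of 19 and Myb 3 of 9.

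Genes of other lineages had medians of 1 (B cell, T cell), 0.5 (neuron) and 0 (erythroid), and liver genes one of 0. B cell genes had a C/EBP-only region in 13 of 19 loci, with Ebf1 (7 of 14, all inside the gene) and Bach2 (5 of 10, all inside) first, and Cd79b (2 of 4) tied with Cd79a and Blk. T cell genes had one in 10 of 16, with 3 of 6 at Thy1 and 1 at each of the others, such as Cd3d (1 of 3) and Cd8a (1 of 1). Erythroid genes had one in 8 of 18 (44.4%), with Sptb (3 of 6), Epb42 (2 of 4) and 1 at each of the others, such as Hemgn (1 of 3), and neuron genes in 10 of 20, with Nefl (3 of 3) and Neurod1 (2 of 3) among the first. Housekeeping genes had one in 16 of 20 (80%), as many as the stress genes, with Pgk1 (4 of 6), Eef2 (3 of 6) and Ywhaz (3 of 7) first and Rab7 also at 3.

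**Figure D5:**
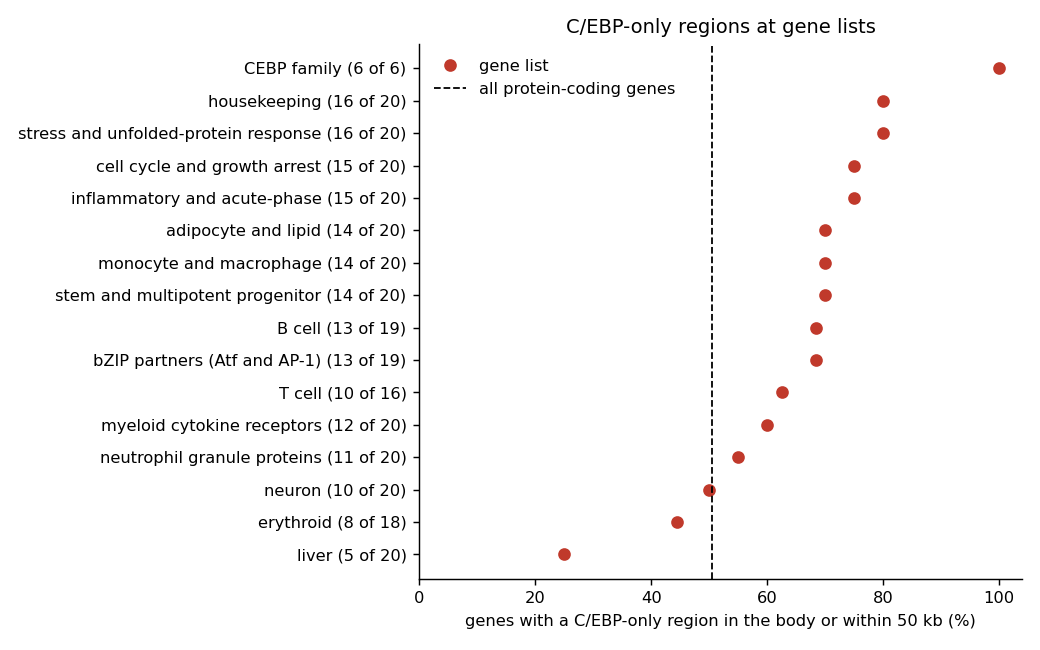
Share of genes (%, horizontal axis) of each of 16 lists (vertical axis, with counts) that had a C/EBP-only region in the gene body or within 50 kb. The dashed line is the 50.4% of all protein-coding genes, and the lists run from 25% for liver to 100% for the C/EBP family.

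By nearest gene, C/EBP-only regions were spread thinly. They were nearest to 5832 genes, of which 3643 had a single region and 39 had 10 or more. The most, 25, were nearest to Efna5, an ephrin ligand, of which 7 lay inside the gene. Runx1, the blood stem cell factor, followed with 20 (7 inside). Cited2, a CBP/p300-binding regulator needed by blood stem cells, and the zinc finger gene Zeb2 came next with 19 each. Cited2 had none of them inside the gene and 4 C/EBP-only regions in its locus, and Zeb2 had 4 inside and 4 in its locus. Gata3, a T cell regulator, had 18, but none inside and only 1 in its locus. Magi2 had 18, all inside its body of 1485 kb, Zfp608 had 17, Pde4d 16, all inside 1302 kb, and Trps1 16. Angpt1, a ligand of the Tie2 receptor on stem cells, had 15, with 11 inside.

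Some regions lay in runs. When regions at most 12.5 kb apart were joined, 8092 (76.5%) stayed single, 951 pairs and 180 runs of 3 or more formed, and 11 runs held 5 or more. The longest run, of 7 regions, lay inside Cdk6 at chr5:3357531-3382134 and spanned 24.6 kb, with 5 regions of other kinds between them, none of which held both C/EBP factors. The 4 next runs, of 5 regions each, were nearest to Ell2 (chr13:75773365-75789786), an elongation factor, Satb1 (chr17:51772552-51791689), a chromatin organiser, Angpt1 (chr15:42654015-42673908) and Arid5b (chr10:68231868-68254582). The C/EBP-only regions of a run lack Spi1 by the rule. Of the regions of other kinds between them, Spi1 was in 4 of 5 in the Cdk6 run. It was in 2 of 2 in each of the Ell2 and Satb1 runs, 1 of 1 in the Arid5b run and 0 of 1 in the Angpt1 run.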

How the data were processed

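The data are ChIP-seq peak lists of 13 factors, 1 library each. The submitters' processing notes name mm10, GRCm38, bedtools, MACS2 and Bowtie2; no source used here gives versions, roles or a calling threshold. The lists deposited by the authors give start and end in base pairs, with no score, signal or count, and all peaks are 400 bp wide, so depth is unknown and precision rests on the number of regions. Of 279958 peaks, 3 mitochondrial ones were left out. Peaks that touched or overlapped were joined. Peak midpoints, gene boundaries (RefSeq, GRCm38.p6), starts and sequences of RefSeq promoter windows (32619 windows, 32583 of them distinct, none on chromosome 18) gave the other measures. Genes listed within the first 3 Mb of a chromosome (108) were left out. A region inside several genes went to the shortest. Of 300 list entries (16 lists), 298 were found. A window counted where a region covered it in full. With 1 library a factor no test was made, and shares have exact (Clopper-Pearson) 95% intervals; a 0 allows 3 counts.

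Named genes were the 10 nearest to the most regions, the 3 of each list with the most regions in the locus (ties by shorter locus, then alphabet), the C/EBP family, the 5 longest runs and the 10 promoters with a site nearest the midpoint; other genes were picked after their values were seen, and a gene taken by the rule is not reported here. Members and lists were chosen with earlier results of these data known. Functions were checked on simulated data. Python 3.11.15, pandas 2.3.3, numpy 2.4.6, scipy 1.17.1 and matplotlib 3.10.9 were used. Alternatives changed the joining, the lines used, the Spi1 list, the windows, the locus and the site.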

Additional observations from a re-analysis of the deposited data

How the results depend on the processing

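Of 72 alternative values, 39 stayed within 1.5 times the count or within the 95% interval of the value reported. When only the upper 50% of lines was kept there were 6460 C/EBP-only regions, with a median midpoint distance of 9 bp, 10.8% within 1 kb of a gene boundary and 10.4% within 1 kb of a start. Without the Spi1 list there were 13931 regions, with the median distance still at 13 bp. Joining only at an overlap of 200 bp or more put 9.78% near a boundary and 9.35% near a start. Windows of 0.5 kb gave 4.86% and 4.47%, and of 5 kb 25.1% and 22.7%. No peak of another factor lay within 2 kb of 60.7% and within 50 kb of 2.80%. The palindrome alone was in 5.92% of windows.

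Shares of list genes move with the locus, as does the background, by construction. For each setting, the lists given first are those whose share left the 95% interval of the value reported. With 10 kb either side (background 28.0%), the C/EBP family stood at 50%, neutrophil granule genes at 30%, cytokine receptors at 35%, liver at 5%, B cell at 21.1%, T cell at 25%, housekeeping at 45% and neuron at 25%. With 100 kb (65.4%), neutrophil granule genes stood at 80%, cytokine receptors at 85%, inflammatory at 95%, T cell at 87.5%, erythroid at 88.9% and stem at 90%. By nearest gene (27.1%), the C/EBP family stood at 50%, neutrophil granule at 30%, monocyte at 40%, B cell at 21.1%, T cell at 31.25% and housekeeping at 45%. Other lists stayed within that interval. With 10 kb and by nearest gene, stress genes stood at 60% and 90%, and cell cycle genes at 55% and 60%. Adipocyte genes stood at 60% and 55%, and erythroid genes at 22.2% and 27.8%.

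Depth could not be judged from positions. No paired analysis was possible because each factor had 1 library.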
